A study of Drosophila melanogaster and Drosophila miranda with 8 samples.

Results

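The sites described here are the places in the genome of *Drosophila miranda* where a CLAMP peak of one ChIP-seq replicate and a CLAMP peak of the other were centred at nearly the same position. A pair was formed whenever a peak of replicate 1 and a peak of replicate 2 on the same Muller element had centres at most 200 bp apart, the centre being the midpoint between the deposited start and end. This gave 268 centre-matched pairs from the 3577 peaks of replicate 1 and the 12523 peaks of replicate 2. No peak was in more than 1 pair, so 7.49% of the replicate 1 peaks and 2.14% of the replicate 2 peaks were members, and 3309 and 12255 peaks remained. The 4 peak lists of the series held 33972 peaks in all. Pairs were also formed by the same rule in *Drosophila melanogaster*, where 470 pairs came from lists of 9080 and 8792 peaks.

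The study mapped CLAMP in wild type female larvae of the 3rd instar from *D. miranda* and from *D. melanogaster*, to ask how far its binding is conserved. Each species had 2 libraries precipitated with an antibody against CLAMP and 2 input libraries without antibody, and the inputs entered only through the peak calls of the authors. Chromatin came from many whole larvae pooled together, so signal from all their cell types was mixed. The species were reared at different temperatures, so species and rearing cannot be told apart, and the labels do not say whether the replicates were separate collections. The numbers of reads behind a peak are not in the lists, so depth per site is unknown. Every interval and p-value below covers counting error over the sites of these libraries and not the spread between animals.

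CLAMP is a zinc finger protein that binds GA-rich DNA throughout the genome. In *D. melanogaster* males it helps to bring the MSL dosage compensation complex to the X chromosome, and females, which lack the assembled complex, also have CLAMP on chromatin. A Muller element is a chromosome arm whose gene content is conserved between *Drosophila* species. In *D. miranda* the X-linked elements are XL and XR, which are older X chromosomes, and neoX, which became X-linked more recently. Chromosomes 2, 4 and 5 are autosomes. XR stands here for the element that the lists call AD. Positions are given as deposited, on the published *D. miranda* assembly that the authors used, and they are those of the replicate 1 peak. Gene annotation of that assembly was not used here, so no site is placed in or near a gene, and no DNA sequence is given.

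The 268 pairs were about 2 times as many as an even spread of both lists would give. If the centres of each list lay evenly between the first and the last peak of each element, 131 pairs would be found, and the ratio of pairs to that number was 2.04 (exact 95% Poisson interval 1.81 to 2.30). A second reference came from the lists themselves, as the 10150 pairs of centres lying 5 to 20 kb apart, scaled to the same span of distance. It gave 135 pairs and a ratio of 1.98. In *D. melanogaster* the 470 pairs stood beside 253 for even spread, with a ratio of 1.86 (1.69 to 2.03). The excess of *D. miranda* pairs over even spread was 137, and its source was not tested. A large share of the pairs would thus be found if both lists were spread evenly and independently. The lists do not mark which single sites these are. The share differed with width, as both partners were at least 2000 bp wide in 51 pairs beside 2.51 for even spread. Both were narrower than that in 147 pairs beside 97.6. Since the pairs were chosen by the distance that is counted here, these ratios are a description and were not tested.

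Matched centres were most frequent at the smallest distances and thinned out gradually. The distance within a pair had a median of 89.8 bp, with quartiles of 39.1 and 141 bp and a range of 0.5 to 197.5 bp. In steps of 50 bp from 0 to 200 bp there were 85, 64, 67 and 52 pairs, against 32.8 in each step for even spread. The density of pairs stayed raised beyond the limit of the rule. Per 100 bp of distance there were 118 pairs between 200 and 500 bp, 86.0 between 500 and 1000 bp, 68.6 between 1000 and 2000 bp and 70.3 between 2000 and 3000 bp, beside 65.6 for even spread. The replicate 2 centre lay at the higher coordinate in 139 pairs and at the lower in 129, and the median signed offset was 4.5 bp.

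**Figure D1:**
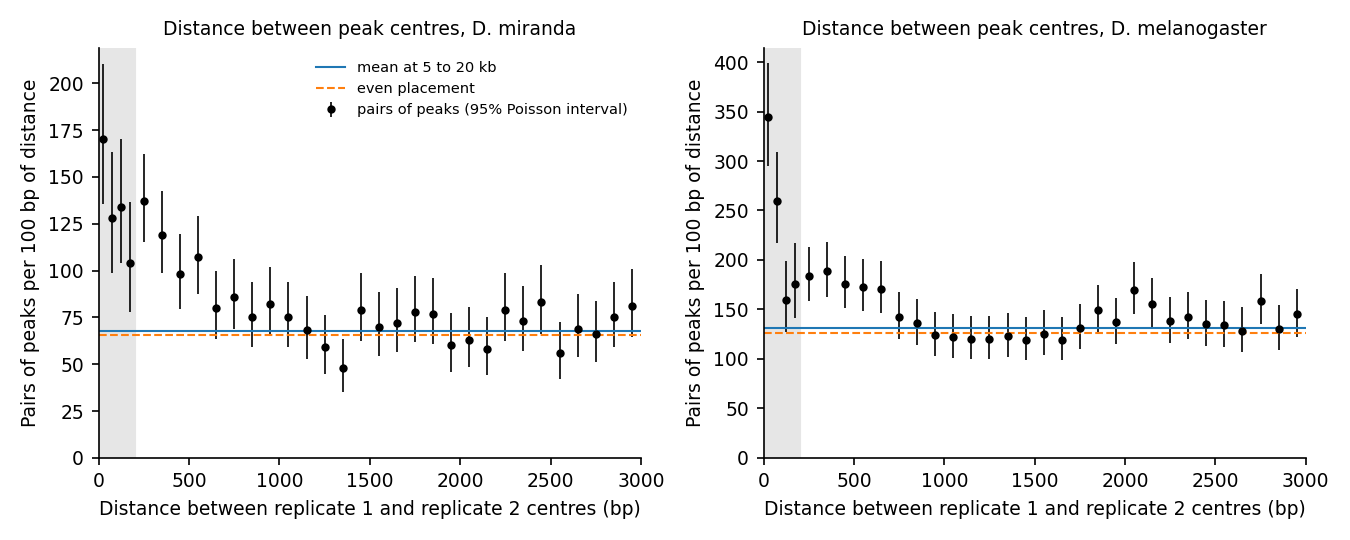
Number of peak pairs per 100 bp of distance between a replicate 1 centre and a replicate 2 centre, for *D. miranda* (left) and *D. melanogaster* (right), with exact 95% Poisson intervals. The grey band marks the 200 bp of the rule, the blue line the mean level at 5 to 20 kb and the dashed line even spread. In *D. miranda* the first 50 bp hold 85 pairs, and the points come down to the level of even spread by about 1000 bp.

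The limit of 200 bp fell in a region where sites on both sides looked alike. Just inside it were chr4:23261295-23263409, with centres 196 bp apart, neoX:793798-794798 at 197 bp and chr2:15108024-15109386 at 197.5 bp. Just outside it were XR:2413290-2414395 and neoX:11820033-11821854, both at 201.5 bp, and XL:1027369-1029636 at 202 bp. Partners just inside were 2114 and 1000 bp, 1000 and 1000 bp, and 1362 and 1231 bp wide in replicates 1 and 2. Those just outside were 1105 and 1656 bp, 1821 and 1000 bp, and 2267 and 2159 bp wide. No gap in distance or width marked the edge of the set.

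The rule itself fixes much of the overlap of partners, since peaks of at least 1000 bp with centres at most 200 bp apart must share 800 bp or more. The replicate 1 peak lay inside the replicate 2 peak in 122 pairs, the reverse held in 60, and neither was inside the other in 86. The shared stretch had a median of 1392 bp and ran between 803 and 5182 bp. As a share of the wider partner it had a median of 82.0%, was at least 50% in 252 pairs and at least 80% in 145, and reached its lowest value of 22.7% in 1 pair. Both ends lay within 100 bp of each other in 55 pairs. The replicate 2 partner was the wider one in 163 pairs, the replicate 1 partner in 100, and 5 pairs had equal widths.

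Of the 6 closest pairs, 4 had both partners between 1880 and 2172 bp wide. The smallest distance, 0.5 bp, was at chr4:12736527-12738549, where the partners were 2022 bp wide in replicate 1 and 2145 bp in replicate 2. At XL:12364198-12366078 the centres were 1 bp apart, with widths of 1880 and 2172 bp. At chr4:19100173-19102165 they were 1.5 bp apart, with widths of 1992 and 1917 bp. Centres 2 bp apart were found at XL:15740805-15742793, with widths of 1988 and 2052 bp, at chr4:9789255-9790670, with 1415 and 1735 bp, and at XR:14464402-14469118. The last of these was also the pair with the largest summed width, at 4716 bp in replicate 1 and 7204 bp in replicate 2. The next widest sites were also on XR, at XR:24825890-24831072 with 5182 and 6127 bp and at XR:230912-235050 with 4138 and 4262 bp.

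Members were wider than the peaks that remained unmatched, in both replicates. Widths of replicate 1 members ran between 1000 and 5182 bp with a median of 1832 bp and quartiles of 1114 and 2000 bp, against a median of 1269 bp and quartiles of 1000 and 1885 bp among the remaining peaks. Members exceeded the remaining median in 179 of 268 cases, which is 66.8% (exact 95% interval 60.8 to 72.4), whereas 51.2% of all replicate 1 peaks did. In replicate 2 members ran between 1000 and 7204 bp with a median of 1817 bp and quartiles of 1260 and 2135 bp, against a median of 1387 bp and quartiles of 1081 and 1828 bp among the remaining peaks. Here 185 of 268 members, or 69.0% (63.1 to 74.5), exceeded the remaining median, whereas 50.4% of all replicate 2 peaks did. The two-sided exact binomial test gave p = 4.09e-08 in replicate 1 and p = 4.25e-10 in replicate 2, or 8.18e-08 and 1.70e-09 after Benjamini-Hochberg adjustment over the 4 tests of width and value. The rule used only the positions of centres, although width and position come from the same peak call.

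The difference was smaller among peaks that overlapped between the replicates. Set against only those remaining peaks that overlapped a peak of the other replicate, 56.3% of replicate 1 members were wider than the median (p = 0.0436, adjusted p = 0.174) and 54.9% of replicate 2 members were (p = 0.127, adjusted p = 0.185, exact binomial tests). Neither difference then passed the threshold of 0.05 after adjustment. These overlapping peaks had medians of 1612 bp in replicate 1 and 1739 bp in replicate 2, above those of all remaining peaks. Centres over 1000 bp apart allow overlap only where a partner is wider than 1000 bp, so overlap in part selects for width. The comparison therefore cannot tell how much of the drop came from that selection, which was not tested.

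The difference in width was not even along the range of widths. No peak in the lists was narrower than 1000 bp, and this minimum held 50 members (18.7%) against 1063 remaining peaks (32.1%) in replicate 1, and 19 members (7.09%) against 1759 remaining peaks (14.4%) in replicate 2. Between 2000 and 2500 bp there were 56 members (20.9%) against 293 remaining peaks (8.85%) in replicate 1, and 59 members (22.0%) against 937 remaining peaks (7.65%) in replicate 2. Above 2500 bp there were 20 members (7.46%) against 92 (2.78%) in replicate 1, and 37 members (13.8%) against 792 (6.46%) in replicate 2. Members were thus fewer at the minimum width and more frequent from 2000 bp up in both lists.

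**Figure D2:**
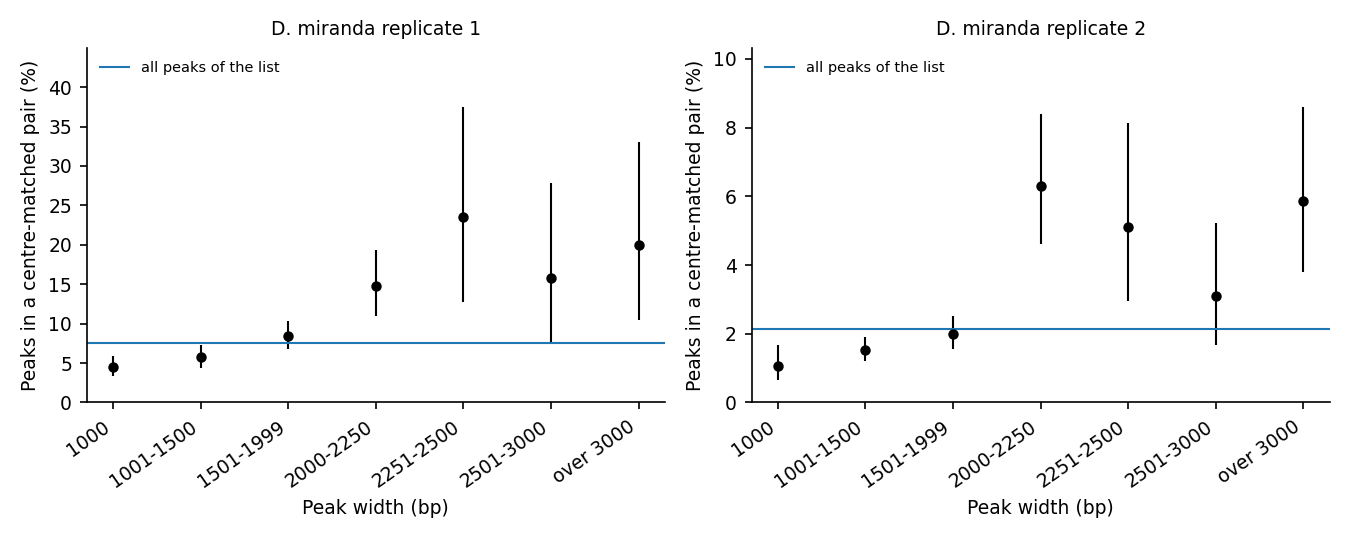
Percentage of peaks that belong to a centre-matched pair by peak width, for *D. miranda* replicate 1 (left) and replicate 2 (right), with exact 95% binomial intervals, and the percentage over the whole list as a line. In replicate 1 it was 4.49% at 1000 bp and 14.8% at 2000 to 2250 bp, and in replicate 2 it was 1.07% and 6.30% in the same classes.

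Expressed as the share of peaks that were matched, replicate 1 had 4.49% at 1000 bp (exact 95% interval 3.35 to 5.88), 5.73% above that up to 1500 bp, 8.48% between 1500 and 2000 bp, 14.8% at 2000 to 2250 bp (10.9 to 19.3) and 23.5% above that up to 2500 bp (12.8 to 37.5). It was 15.8% between 2500 and 3000 bp and 20% above 3000 bp. In replicate 2 the shares were 1.07%, 1.53%, 1.99%, 6.30% (4.60 to 8.40), 5.10%, 3.10% and 5.87% in the same order of classes. In both lists the step between neighbouring classes with intervals that do not overlap lay at 2000 bp, and classes above it did not differ beyond their intervals. These classes were set after the widths had been seen and carry no test.

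Wide peaks matched other wide peaks far more often, relative to even spread, than narrow peaks matched narrow ones. Both partners were at least 2000 bp wide in 51 pairs, where even spread of the peaks of that width would give 2.51, a ratio of 20.3 (exact 95% Poisson interval 15.1 to 26.7). From the centres 5 to 20 kb apart, which keep any local crowding of wide peaks, 3.48 would be found, a ratio of 14.7. These 51 pairs held 48.5 of the excess of 137 pairs. Both partners were narrower than 2000 bp in 147 pairs, beside 97.6 for even spread, a ratio of 1.51 (1.27 to 1.77). The mixed pairs lay between these values, with 25 pairs of a wide replicate 1 peak and a narrower replicate 2 peak beside 14.4 for even spread, and 45 pairs of the opposite kind beside 16.7.

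**Figure D3:**
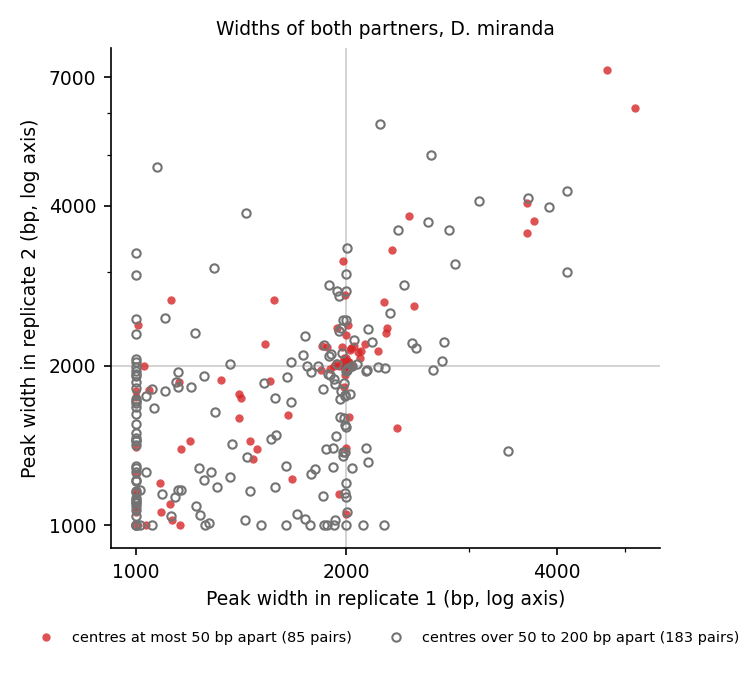
Width of the replicate 1 partner against the width of the replicate 2 partner for the 268 *D. miranda* pairs, both on log axes in bp. Filled points are the 85 pairs with centres at most 50 bp apart, open points the other 183, and grey lines mark 2000 bp. Pairs crowd where the lines cross and along both minimum widths, and 51 pairs lie at or above 2000 bp on both axes.

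Pairs of wide peaks were also more tightly centred. Among the 51 pairs the median distance was 45 bp and 26 pairs, or 51.0%, lay within 50 bp, against a median of 95 bp and 59 pairs, or 27.2%, among the other 217. Even spread would put 25% of pairs within 50 bp and the median at 100 bp. The shared stretch was 91.7% of the wider partner at the median in the 51 pairs, against 79.7% in the others. The 51 pairs lay on all 6 elements, as XL had 8, XR 14, neoX 7, chromosome 2 had 15, chromosome 4 had 6 and chromosome 5 had 1.

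The tightest group was the narrow class of 2000 to 2500 bp. Both partners fell in it in 23 pairs, beside 1.02 for even spread (ratio 22.7, 14.4 to 34.0), and their median distance was 29.5 bp. Of the 23, 17 lay within 50 bp, or 73.9% (exact 95% interval 51.6 to 89.8), against 68 of the other 245, or 27.8% (22.2 to 33.8). In *D. melanogaster* the same class held 70 pairs beside 1.98 for even spread, a ratio of 35.3, with a median distance of 39.5 bp and 44 pairs, or 62.9%, within 50 bp. Values of the 23 *D. miranda* pairs ran between 0.94 and 5.55 in replicate 1 and between 0.82 and 3.11 in replicate 2. The highest replicate 2 value was at chr2:20791697-20793796, with 4.18 and 3.11 in replicates 1 and 2, and neoX:18143391-18145441 had 2.66 and 2.90. The lowest values of both replicates were at XR:6108243-6110461, with 0.94 and 0.82. The class was chosen after the widths had been seen, and these are descriptions.

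Across all 268 pairs the widths of the partners went together. Pearson's r was 0.63 and Spearman's rho 0.50. For the 1135 overlapping pairs with centres over 200 bp apart they were 0.31 and 0.17. Both are descriptions over sites of the same 2 libraries. Overlap at larger distances in part selects for width, so the 2 sets differ in more than the distance of centres. Pairs with the closest centres were the widest, with median widths of 1953 and 2000 bp in replicates 1 and 2 below 50 bp of distance, against 1652 and 1562 bp between 150 and 200 bp.

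The value deposited with each peak was lower at members than at the remaining peaks. The lists give it no name, and it was taken to be the log2 of ChIP over input tags, because 164 of 300 distinct values in replicate 1 and 412 of 929 in replicate 2 had a counterpart exactly 1 away (tolerance 1e-08). In replicate 1 members ran between 0.94 and 6.42 with a median of 3.55, against a median of 3.96 among the remaining peaks, a difference of -0.42 on the log2 scale. Of the 254 members not tied with the remaining median, 100 were above it, or 39.4% (exact 95% interval 33.3 to 45.7), whereas 51.8% of all replicate 1 peaks were. In replicate 2 members ran between 0.50 and 3.61 with a median of 1.79, against 1.91 among the remaining peaks, a difference of -0.12. Here 104 of 268 members were above the remaining median, or 38.8% (32.9 to 44.9), whereas 49.7% of all replicate 2 peaks were. The two-sided exact binomial test gave p = 0.000848 in replicate 1 and p = 0.000297 in replicate 2, with adjusted p of 0.000848 and 0.000396. The ranges of members and remaining peaks overlapped almost wholly, so a value does not tell a member from another peak.

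This lower value did not hold against every set of peaks. Against the remaining peaks that overlapped a peak of the other replicate, 45.2% of replicate 1 members were above the median (adjusted p = 0.185) and 50.4% of replicate 2 members were (adjusted p = 0.951, exact binomial tests), so that the call was lost in both and the direction turned in replicate 2. Width moved with the value, since wider peaks had lower values over all peaks, with Spearman's rho of -0.48 in replicate 1 and -0.30 in replicate 2. With the remaining peaks weighted to the widths of the members, the difference of mean values was -0.17 in place of -0.31 in replicate 1 and -0.12 in place of -0.14 in replicate 2. In *D. melanogaster* it was -0.05 in place of 0.10 in replicate 1 and -0.01 in place of 0.06 in replicate 2.

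Fewer peaks of high value than of low value were matched. In replicate 1 the share of matched peaks was 11.3%, 8.47%, 7.41%, 5.60% and 5.09% in the quintiles of the list ordered from the lowest value to the highest. In replicate 2 it was 3.23%, 2.12%, 2.08%, 1.54% and 1.81%. The interval of the lowest quintile (9.10 to 13.9% in replicate 1 and 2.58 to 4.0% in replicate 2) lay above that of the highest (3.66 to 6.87% and 1.32 to 2.41%), while neighbouring quintiles did not differ beyond their intervals. The highest quintile held 40 members of replicate 1 and 45 of replicate 2, whereas the lowest held 81 in each.

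**Figure D4:**
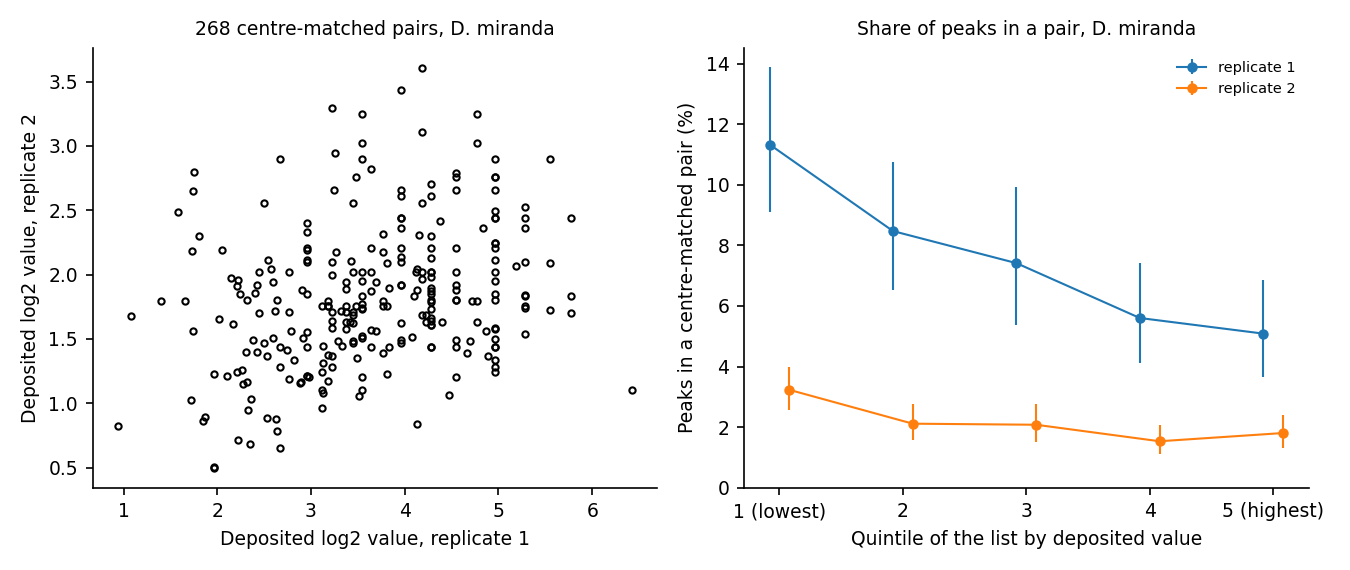
Left, deposited log2 value of the replicate 1 partner against that of the replicate 2 partner for the 268 *D. miranda* pairs, 1 point per pair. Right, percentage of peaks in a pair for quintiles of each list by value, with exact 95% binomial intervals. Values of the partners follow each other loosely, and the percentage is largest in the lowest quintile of both lists, at 11.3% in replicate 1 and 3.23% in replicate 2.

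Partners resembled each other only weakly in value. Pearson's r between the 2 values was 0.29 and Spearman's rho 0.30 over the 268 pairs, as a description over sites that share their libraries. The 1135 overlapping pairs with more distant centres, selected in part by width, had 0.30 and 0.28. The correlation of widths was thus higher among the 268 pairs and that of values was about the same. Within the 23 pairs of 2000 to 2500 bp Spearman's rho was 0.54. Of all members, 17 were in the top decile of replicate 1 by value and 21 in the top decile of replicate 2, and 1 pair was in both. In the bottom decile there were 50 and 44, and 18 pairs were in both.

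Many values were shared by a large number of peaks, which blurs such ranks. The most common value of replicate 1, 4.96, was carried by 447 peaks, or 12.5% of the list, among them 23 members (8.58%). In replicate 2 it was 2.02, on 746 peaks (5.96%), among them 11 members (4.10%). Values carried by at least 50 peaks were found on 50.7% of members against 68.7% of remaining peaks in replicate 1, and on 51.5% against 69.3% in replicate 2.

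The sites with the best mean rank of value in the 2 lists were spread over 5 of the 6 elements. At chr2:7722693-7723727 the values were 5.55 and 2.90 in replicates 1 and 2, with centres 26 bp apart. At chr4:23261295-23263409 they were 5.77 and 2.44. At XR:3700563-3701781 they were 5.28 and 2.52, with centres 74.5 bp apart. These 3 sites were 2114 bp wide or less in replicate 1 and 1000 to 1089 bp wide in replicate 2. At neoX:793798-794798 the values were 4.96 and 2.90, at XL:16607608-16608608 they were 5.28 and 2.44, and at chr4:12169022-12170022 they were 4.96 and 2.76. The site XR:19624438-19626446 had the same values as the last and shared its rank. It was 2008 and 1965 bp wide in replicates 1 and 2, whereas each of the other 6 had at least 1 partner of 1000 to 1089 bp.

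Members lay on every element. XL had 49 pairs, XR had 64 and neoX had 48, whereas chromosome 2 had 56, chromosome 4 had 45 and chromosome 5 had 6. Per Mb, XL held 2.22 pairs (1.64 to 2.93, exact 95% Poisson intervals), XR held 2.12 (1.64 to 2.71) and neoX held 2.30 (1.70 to 3.05). Chromosome 2 held 1.70 pairs per Mb (1.28 to 2.20), chromosome 4 held 1.56 (1.14 to 2.09) and chromosome 5 held 3.38 (1.24 to 7.37). All intervals overlapped. The short chromosome 5 had the largest density, on 6 sites.

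**Figure D5:**
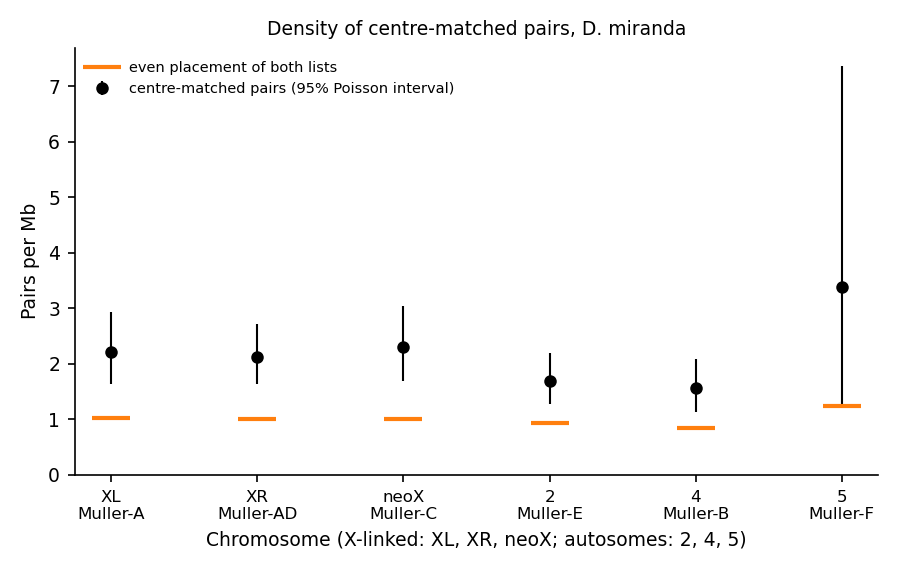
Centre-matched pairs per Mb on the 6 Muller elements of *D. miranda*, X-linked elements at the left and autosomes at the right, with exact 95% Poisson intervals and the level for even spread of both lists as a bar. Densities lie between 1.56 per Mb on chromosome 4 and 3.38 per Mb on chromosome 5.

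X-linked and autosomal densities were compared because the study asked whether CLAMP sites are enriched on X chromosomes. Over XL, XR and neoX together there were 161 pairs, or 2.20 per Mb, against 107 pairs, or 1.68 per Mb, on the autosomes. The ratio was 1.31 (1.02 to 1.69) with p = 0.0320 by a two-sided exact conditional binomial test, and the adjusted p over the 4 ratios was 0.128. The ratio was 1.32 for XL (0.919 to 1.86, p = 0.120), 1.26 for XR (0.911 to 1.74, p = 0.141) and 1.37 for neoX (0.951 to 1.94, p = 0.0767) by the same exact test, with an adjusted p of 0.141 for each. None passed after adjustment. The intervals of the single elements leave room for densities well above or slightly below the autosomal one, whereas that of the 3 together lay above it. The 4 ratios are not independent, since all use the same autosomal pairs and the joint one reuses the pairs of the single elements. With the number of pairs for even spread in place of length, which takes account of how many peaks each element has, the ratio for the 3 together was 1.17 (exact p = 0.218).

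The ratio of pairs to even spread was above 1.8 on each element. XL had a ratio of 2.17, XR of 2.13 and neoX of 2.29, whereas chromosome 2 had 1.81, chromosome 4 had 1.84 and chromosome 5 had 2.71. Members made up 8.03%, 8.11% and 8.50% of the replicate 1 peaks on XL, XR and neoX, against 6.57%, 6.44% and 9.84% on chromosomes 2, 4 and 5. The direction of the differences in width and value was the same on all 6 elements in both replicates. Median widths of members exceeded those of remaining peaks by 300 bp on chromosome 5 to 670 bp on XR in replicate 1, and by 229.5 bp on chromosome 5 to 534 bp on XL in replicate 2. Median values of members minus remaining peaks ran between -1.01 on chromosome 5 and -0.08 on neoX in replicate 1, and between -0.23 on chromosome 5 and -0.06 on chromosome 2 in replicate 2.

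On chromosome 5, which corresponds to Muller element F, the 6 sites can be given in full. The site chr5:118885-120826 had values of 2.27 and 1.15 in replicates 1 and 2, and chr5:560810-562555 had 2.50 and 2.55. Its neighbour chr5:562610-566317 had 2.91 and 1.50 and was the widest, at 3707 and 3747 bp. The site chr5:993463-994463 had the highest replicate 1 value, 4.96, with 2.44 in replicate 2. At chr5:1506280-1507918 the values were 2.60 and 1.94, and at chr5:1770983-1772947 they were 3.11 and 1.10. Of the 6 replicate 1 values only that of chr5:993463-994463 was above the median of the remaining peaks on this chromosome, 3.77.

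Neighbouring members stood about as far apart as evenly spread sites would. The 262 gaps between neighbours had a median of 343 kb, beside 348 kb for even spread, with quartiles of 128 and 719 kb and a range of 2.47 to 2737 kb. Gaps of at most 5 kb numbered 4 beside 2.62 for even spread, gaps of at most 20 kb 14 beside 10.3, and gaps of at most 100 kb 53 beside 47.6. The closest neighbours were XR:7239143-7240396 and XR:7241616-7242616, 2.47 kb apart from centre to centre. Next were the neighbours on chromosome 5 given above, and chr2:25634771-25636656 with chr2:25637794-25639721. The last 2 sites were of like width, at 1885 and 1927 bp in replicate 1 and 1928 and 1847 bp in replicate 2.

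Within their own list, members had slightly more peaks around them in replicate 1. The nearest other replicate 1 peak was 11.0 kb from a member at the median, against 13.3 kb from a remaining peak, and 1.53 other peaks lay within 25 kb of a member on average, against 1.28 for a remaining peak. No other replicate 1 peak lay within 25 kb of 58 members (21.6%), against 881 remaining peaks (26.6%). In replicate 2 the nearest peak was 4.63 kb from a member, against 4.55 kb from a remaining peak, and 4.56 against 4.46 other peaks lay within 25 kb. These are descriptions without a test.

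Along the elements members were mostly evenly spread, with a few crowded stretches. In 5 successive segments of equal length on each chromosome there were 58, 52, 59, 51 and 48 pairs. Over 133 windows of 1 Mb the mean was 1.98 pairs and the variance 1.31 times the mean. No pair was found in 19 windows, beside 18.4 for a Poisson distribution, and 5 or more were found in 7, beside 6.74. Within these windows 263 pairs stood beside 129 for even spread inside each window, so that the ratio of 2.04 was the same as over whole elements.

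The most crowded window was at 13 to 14 Mb of chromosome 2. It held 10 pairs, from 41 replicate 1 peaks and 112 replicate 2 peaks, where even spread inside the window would give 1.84. In 8 of the 10 both partners were at least 2000 bp wide, and the median widths were 2150.5 bp in replicate 1 and 2323.5 bp in replicate 2. This window also had the largest number of wide peaks in replicate 1, 15 against a median of 3 per window, and 23 against a median of 12 in replicate 2. Even spread of these wide peaks inside the window would give 0.138 pairs. Values of the 10 pairs ran between 1.80 and 3.96 in replicate 1, with a median of 2.73. In replicate 2 they ran between 0.68 and 3.44, with a median of 1.98. The highest replicate 1 value, 3.96, was found at chr2:13692964-13694964 and chr2:13422719-13424580, with 2.61 and 3.44 in replicate 2. The latter site was not a pair of wide peaks, at 1861 and 1000 bp in replicates 1 and 2. The first megabase of neoX was next with 9 pairs, beside 2.49 for even spread, and in 3 of them both partners were at least 2000 bp wide. Both windows were picked for their counts after these were seen. Pairs of wide peaks were found in 35 of the 133 windows, and the ratio of all 51 to even spread inside each window was 19.0, so that they did not come from the crowded window alone.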

How the data were processed

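CLAMP ChIP-seq peak lists of 2 *D. miranda* and 2 *D. melanogaster* libraries of wild type female larvae were used, each with its deposited start, end and log2 value. According to the methods, the authors aligned reads to dm3 for *D. melanogaster* and a published assembly for *D. miranda*, kept reads with a single alignment, dropped positions with unusually many tags and scaled by library size. They then called peaks with the default settings of SPP, separately in each replicate. Their own analysis rested on peaks that overlapped between the replicates, a wider criterion than the centre distance used here. The labels name Bowtie, and dm3 for all samples, whereas the *D. miranda* lists carry names of Muller elements. The sources used here give no versions. The deposited log2 value has no name in the lists and was read as a ChIP to input ratio from its spacing.

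Pairs, widths (end minus start), centres and gaps were computed with Python 3.11.15, numpy 2.4.6, pandas 2.3.3 and scipy 1.17.1. Counts for even spread were computed in closed form between the first peak start and the last peak end of each element (whole lists) or inside windows of 1 Mb. Width and value of members were compared with the remaining peaks of the same list by exact binomial tests on the share above the remaining median, with ties left out, and densities by exact conditional binomial tests over chromosome lengths set to the end of the outermost peak. P-values were adjusted by the Benjamini-Hochberg method within 4 tests each (or the tests made under an alternative), at a threshold of 0.05. The procedures were tested on simulated data. Peaks of 1 library are not independent replicates. Depth is unknown from the lists, and columns of other samples numbered 0.

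Sites named by position are the 6 of best mean value rank with a further site tied for the last place, the 6 of smallest distance, the 3 closest neighbouring pairs, all on chromosome 5, the 3 just inside and outside the limit and the 3 widest. Others were named after their values were seen. The members, rules and alternatives were chosen with earlier results of these data known.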

Additional observations from a re-analysis of the deposited data

Results flagged for a closer look

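The median value of members relative to remaining peaks had opposite signs in the species when widths were left as they were. The median value of members minus that of remaining peaks was -0.42 in *D. miranda* replicate 1 and -0.12 in *D. miranda* replicate 2, against 0.0487 in *D. melanogaster* replicate 1 and 0.0693 in *D. melanogaster* replicate 2, on the log2 scale. With the remaining peaks weighted to the widths of the members, the difference of mean values was -0.17 and -0.12 in *D. miranda* replicates 1 and 2. In *D. melanogaster* it was -0.05 and -0.006, without an interval, so a sign cannot be read from values this small. Spearman's rho of width with value over all peaks was 0.59 and -0.22 in *D. melanogaster* replicates 1 and 2. In *D. miranda* it was -0.48 and -0.30. Against remaining peaks that overlap the other replicate, the share of members above the median was 50.4% in *D. miranda* replicate 2, so the direction turned there. The difference between the species was not tested.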

How the results depend on the processing

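The number of pairs followed the rule closely, with 149 pairs at a limit of 100 bp, 622 at 500 bp, 59 among the 50% of peaks with the highest value (1984 and 6325 peaks, ties kept), 57 in lists of equal length and 701 by a reciprocal overlap of 50%. For lists of equal length replicate 2 was cut to its 3577 peaks of highest value, so length and value changed together. The ratio to even spread was 1.60 for the 50% of highest value, 1.52 for lists of equal length and 2.63 without peaks of the minimum width, and 1.90 to 2.27 under the other 3 alternatives. By the exact binomial test, the share of members above the remaining median of value was 45.2% (adjusted p = 0.185) in replicate 1 and 50.4% (adjusted p = 0.951) in replicate 2 against remaining peaks that overlap the other replicate, and 40.7% and 40.4% (adjusted p = 0.220 for both) among peaks 2000 to 2500 bp wide. It was 33.8 to 41.7% and past the threshold under the other 6. For width the same exact test gave 56.3% (adjusted p = 0.174) in replicate 1 and 54.9% (adjusted p = 0.185) in replicate 2 against overlapping remaining peaks, and 59.3% (p = 0.193) in replicate 2 among the 50% of highest value. In replicate 1 that selection allowed no test, as the remaining median was the minimum width. Limits of 100 and 500 bp kept the call for width in both replicates, at 67.1 to 71.8%. None of 24 alternatives for the 4 density ratios passed after adjustment, with ratios between 0.984, for neoX at a limit of 100 bp, and 1.41. The causes of these changes were not tested. Fewer peaks entered the narrower selections. Overlap with the other replicate also selects in part for width. The alternatives by width class, without peaks of the minimum width for value, and by highest value for width and density were chosen after seeing the data. No paired analysis was possible because a pair needs both replicates, and for the same reason no replicate could be left out.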
